A study of Mus musculus with 30 samples.

Results

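Collagens are the triple-helical proteins of the extracellular matrix, and the genes described here are those that encode their chains. Members were chosen by symbol alone, as every gene written Col, a type number, the letter a and a chain number, and 39 of the 17336 genes in the 2 deposited count tables met this rule. The table of adipose tissue macrophages (ATMs) held 38 of them among 17059 genes, 9 fibrillar, 6 of basement membrane and 23 of other types. The table of bone marrow (BM) held 25 among 13353 genes, 10 fibrillar, 2 of basement membrane and 13 of other types. Both tables held 24, 14 were in the ATM table alone and 1, Col11a1, was in the BM table alone, and all of them passed the filter on low counts.

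Per the labels' protocol, recipients were lethally irradiated with 700 cGy followed by 400 cGy and received, in equal parts, BM cells of Shp2E76K/+;LysM-Cre+ mice carrying CD45.2 and of Boy/J mice carrying CD45.1. LysM-Cre is active in myeloid cells, so the activating Shp2 mutation is switched on in donor-derived myeloid cells and the stroma of a mouse is largely that of the recipient. The WT group was made of WT C57BL/6 recipients, for which no drug is given, and the other 4 groups of leptin-deficient Ob/Ob recipients that from 8 weeks after transplantation received for 30 days 1 of 4 treatments. These were vehicle (Vehicle), beinaglutide, which activates the GLP-1 receptor (the GLP-1R agonist, 3 mg/kg, subcutaneous), an antibody to IL-17A (the antibody, 200 µg per mouse, intraperitoneal, 3 times weekly), or both agents (Combo). Each group had 3 libraries of whole BM cells and 3 of F4/80+ cells sorted from visceral adipose tissue, described as separate mice of 12 to 14 weeks and of both sexes. That age cannot be the one at harvest, since the study's methods have recipients close to it already before transplantation. The genotype label of every library reads C57BL/6J, so the Ob/Ob groups are known from the protocol text and the treatments. One figure legend of the study describes an ATM comparison as one of mutant with WT donor cells, and the labels do not give the donor of each library, so a difference in donor cannot be told apart from a difference in recipient in the ATM comparison of Vehicle with WT.

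Fibrillar chains (types I, II, III, V, XI and XXVII) build the banded fibrils of connective tissue and bone, and type I is the main one in bone and type II in cartilage. Type IV chains form the sheet-like network of basement membranes under endothelium and epithelium and around adipocytes and smooth muscle, and in the genome they lie as head-to-head pairs. Type VI makes beaded filaments around fibroblasts and adipocytes, FACIT collagens (types IX, XII, XIV, XVI, XIX, XX and XXII) sit on the surface of fibrils, and types XV and XVIII are multiplexins of the basement membrane zone. Fibroblasts, mural cells and osteoblasts are the usual sources of the fibrillar chains, and hematopoietic cells express few collagens.

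The sequences shown here are the 250 bases before the transcription start of members on which the results turn, taken from RefSeq (GRCm38.p6) and given on the strand of the gene, for windows that hold no annotated exon. Capitals mark the TATA box motif (TATAAA), the CAAT box motif (CCAAT) and the GC box motif (GGGCGG), searched on both strands. Col3a1 is shown as the most abundant chain in ATMs, Col6a5 and Col4a6 for the size of their change there, and Col5a3 for its change in BM.
Col3a1, chr1:45311288-45311537, plus strand: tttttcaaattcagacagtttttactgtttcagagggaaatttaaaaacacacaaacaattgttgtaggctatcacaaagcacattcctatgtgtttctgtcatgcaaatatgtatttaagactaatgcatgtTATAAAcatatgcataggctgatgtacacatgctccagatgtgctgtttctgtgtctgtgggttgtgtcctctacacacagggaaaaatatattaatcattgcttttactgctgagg
Col5a3, chr9:20815068-20815317, minus strand: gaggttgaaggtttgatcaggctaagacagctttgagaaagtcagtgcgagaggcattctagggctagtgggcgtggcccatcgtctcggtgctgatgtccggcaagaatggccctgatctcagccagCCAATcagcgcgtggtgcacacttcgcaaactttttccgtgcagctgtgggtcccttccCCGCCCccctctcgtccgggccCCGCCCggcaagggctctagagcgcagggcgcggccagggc
Col6a5, chr9:105960644-105960893, minus strand: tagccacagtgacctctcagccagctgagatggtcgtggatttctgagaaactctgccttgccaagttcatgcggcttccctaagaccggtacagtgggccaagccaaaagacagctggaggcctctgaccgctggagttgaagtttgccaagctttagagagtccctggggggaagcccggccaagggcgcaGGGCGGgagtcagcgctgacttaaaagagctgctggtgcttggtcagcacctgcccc
Col4a6, chrX:141474077-141474326, minus strand: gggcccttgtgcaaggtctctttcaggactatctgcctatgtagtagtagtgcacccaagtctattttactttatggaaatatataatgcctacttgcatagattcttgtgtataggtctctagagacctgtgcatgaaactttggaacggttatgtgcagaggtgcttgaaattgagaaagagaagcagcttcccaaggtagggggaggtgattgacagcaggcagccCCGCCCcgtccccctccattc
Col4a4 to Col4a3, the bases between their starts, chr1:82586850-82586920, strand of Col4a4: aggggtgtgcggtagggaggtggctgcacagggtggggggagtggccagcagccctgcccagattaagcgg
The window of Col3a1 held 1 TATA box motif, those of Col6a5 and Col4a6 held 1 GC box motif each, and that of Col5a3 held 1 CAAT box motif and 2 GC box motifs. Among all 32851 windows of this length in the RefSeq table, 12.4% held the TATA box motif, 33.8% the CAAT box motif and 32.7% the GC box motif. Of the 32 windows of 30 collagen genes, 4, 11 and 20 held them, respectively.

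The 6 type IV genes form 3 pairs that are read in opposite directions from neighbouring starts (GRCm38, GENCODE M21). Col4a1 (chr8:11198423-11312826) and Col4a2 (chr8:11312805-11449287) start 21 bases apart and their first exons overlap by 22 bases. Col4a4 (chr1:82448423-82586849) and Col4a3 (chr1:82586921-82722059) start 72 bases apart, and Col4a6 (chrX:141165403-141474076) and Col4a5 (chrX:141475385-141689234) start 1309 bases apart. Reads had been counted without strand and for every gene they overlapped. The share of exon bases that lie in another gene was above 0 in 12 of the 39 members and above 1% in 6, and was largest in Col9a3 with 6.07% and Col4a3 with 5.65%.

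ATM libraries held 24876074 to 45300263 counts and BM libraries 31086184 to 39925495, and the biological coefficient of variation was 32.5% in ATMs and 3.51% in BM. Within ATM groups abundant members agreed closely while members with few counts scattered widely, and replicate pairs differed by more than counting noise (chi-square per gene 11.5 to 26.2 in ATMs and 2.01 to 4.14 in BM). In BM, WT replicate 1 stood apart from the other WT libraries (26.2 and 34.2). The F4/80+ libraries held markers of other cells, at levels that differed by group. Counts of Adgre1, which encodes F4/80, were 750 to 1184 in ATM Vehicle against 5363 to 6993 in WT and 35909 to 42339 with the antibody, and counts of the macrophage gene Mrc1 were 4205 to 4987 in WT and 105 to 314 in Vehicle. Every ATM library held counts of the fibroblast gene Dcn, 58205 to 61438 in Vehicle and 224222 to 261922 in WT. Crisp1, an epididymal gene, had 83289 to 94859 counts in ATM WT against 0 to 13 in Vehicle, and the 7 pancreatic acinar genes summed to 25310 to 25626 normalized counts in ATM Combo against 252 to 454 in Vehicle. Groups were described as matched for sex, but Xist had 0 to 3 counts in BM WT, 5284 to 6250 in Vehicle, 0 to 6 with the GLP-1R agonist, 87 to 125 with the antibody and 3382 to 3555 in Combo. In ATMs the corresponding counts were 8 to 24, 747 to 1024, 0 in every library, 0 to 53 and 1098 to 1400. Counts of the Y-linked gene Ddx3y were 1437 to 1942, 579 to 655, 1922 to 2191, 1450 to 1641 and 143 to 170 in BM and 3163 to 3496, 165 to 402, 4230 to 6255, 3344 to 4413 and 224 to 410 in ATMs, so Vehicle and Combo libraries held both transcripts. Scaled by effective library size, Combo and Vehicle overlapped in 5 of 5 sex-linked genes in ATMs and in 0 of 5 in BM. Overlap of 3 libraries with 3 does not show an equal make-up by sex, so sex and group cannot be told apart in any comparison.

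Collagen genes took 1.14% to 1.18% of all counts in ATM WT, 0.548% to 0.638% in Vehicle, 1.83% to 1.90% with the GLP-1R agonist, 1.51% to 1.53% with the antibody and 1.19% to 1.26% in Combo. No 2 groups overlapped, with Vehicle lowest and the GLP-1R agonist highest. Type IV chains made up 10.97% to 11.94% of collagen counts in WT, 40.9% to 41.4% in Vehicle, 16.6% to 17.4% with the GLP-1R agonist, 10.35% to 11.01% with the antibody and 9.05% to 9.81% in Combo. In these bulk libraries, fewer cells of a type and less RNA per cell cannot be told apart. In BM collagen took 0.00897% to 0.00951% of counts in WT, 0.00949% to 0.00976% in Vehicle, 0.0145% to 0.0148% with the GLP-1R agonist, 0.0177% to 0.0184% with the antibody and 0.0116% to 0.0122% in Combo. WT and Vehicle overlapped there in the total, but type IV chains made up 3.37% to 4.68% of BM collagen counts in WT and 17.02% to 19.9% in Vehicle, against 4.28% to 7.35% in the 3 treated groups.

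**Figure D1:**
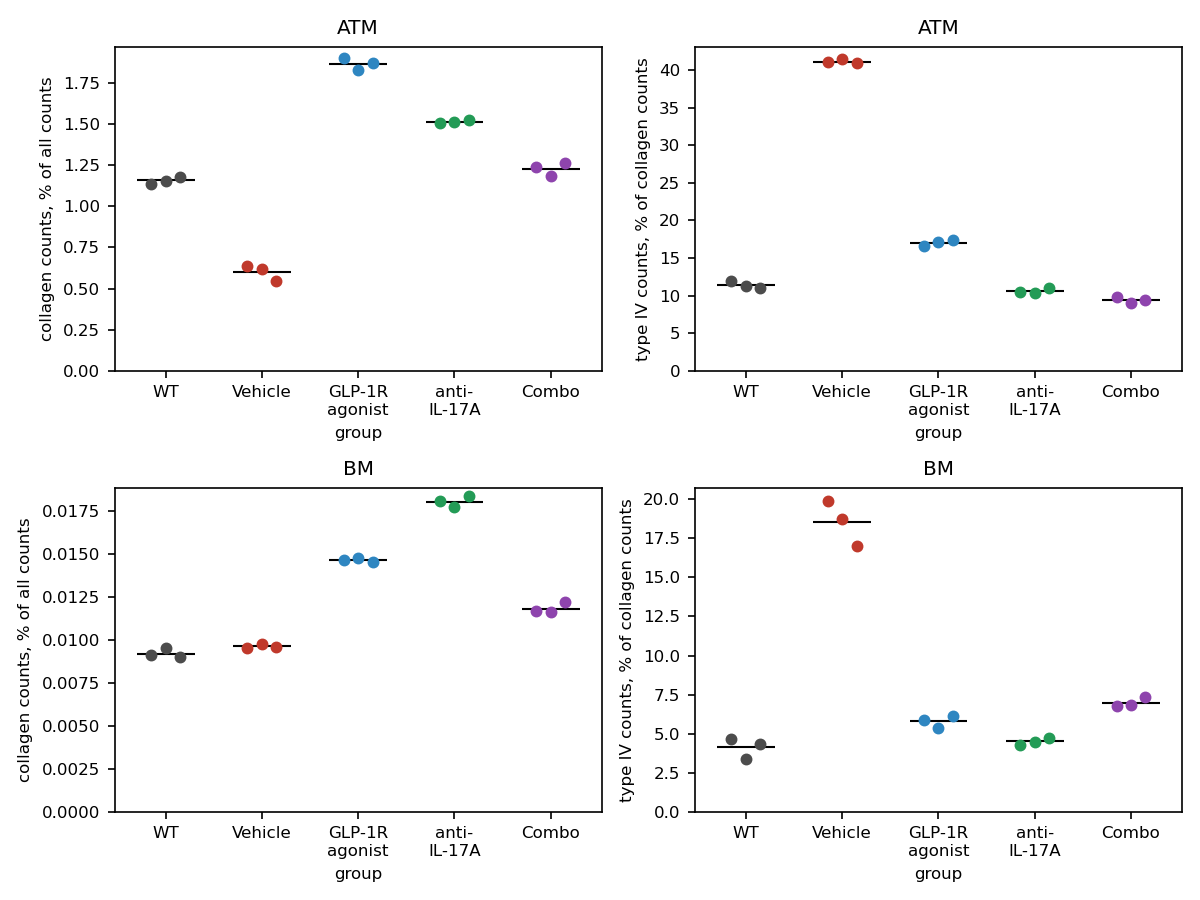
Collagen counts as a percentage of all counts (left) and type IV counts as a percentage of collagen counts (right) in ATMs (top) and BM (bottom), with points for the 3 libraries of each group and lines for their means. In ATMs the Vehicle libraries are lowest in the first share and highest in the second, and in BM the type IV share is highest in Vehicle.

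Per kilobase of exon, Col3a1 was the most abundant chain in ATMs, at a mean over 15 libraries of 484 CPM per kb, followed by Col1a1 (260), Col6a1 (182), Col4a1 (177), Col1a2 (115) and Col4a2 (100.2). The order differed between Vehicle and the other groups. In Vehicle Col4a1 led with 263 and Col3a1 followed Col4a1 with 167, whereas in the other 4 groups Col3a1 led with 398 to 691. The chains Col3a1, Col1a1 and Col1a2 together made up 43.5% to 45.3% of collagen counts in Vehicle, 58.1% to 63.0% in WT and with the GLP-1R agonist, and 68.9% to 72.5% with the antibody and in Combo. In BM the order was Col1a1 (3.87), Col5a1 (3.31), Col1a2 (2.02), Col11a2 (1.01) and Col5a3 (0.974), and Col3a1 stood at 0.128.

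In ATMs, a gene was called if its Benjamini-Hochberg adjusted p over all genes was below 0.05 and its absolute log2 fold change above 1. Between Vehicle and WT, which sets obese against lean recipients, 17 of the 38 members were called lower and 4 higher, 44.7% and 10.5% of the members, where 22.9% and 12.5% of all genes tested were called lower and higher. The median log2 fold change was -1.14 over the members (-1.03 with members at the count floor set to their bound) and -0.21 over all genes. In every class most members were lower in Vehicle (9 of 9 fibrillar, 4 of 6 type IV, 17 of 23 other). Of all 17059 genes tested, 9708 were lower, a share not far from that of the type IV members. The test of any difference among the 5 groups was passed by 28 of 38 members (7 of 9 fibrillar, 6 of 6 type IV and 15 of 23 other) and by 73.5% of all genes tested.

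Of the 9 fibrillar members, 4 fell in Vehicle and all 9 had a negative value, with a class median of -1.03. Col3a1, the chain of type III collagen, was at 126693, 129392 and 132464 normalized counts in WT and 60808, 54134 and 47819 in Vehicle. The groups did not overlap, and Col3a1 fell 2.39-fold (log2 fold change -1.26 ± 0.059 SE, adjusted p = 3.9e-11). Col1a1, the alpha 1 chain of type I, was at 36280.5, 41009 and 41637 in WT and 31834, 31389 and 28579 in Vehicle (log2 fold change -0.37 ± 0.051 SE, adjusted p = 1.49e-05), below the fold limit although the groups did not overlap. Its partner Col1a2 fell, with 43504, 46737 and 47519 in WT against 23844, 22898 and 20710.3 in Vehicle (log2 fold change -1.03 ± 0.051 SE, adjusted p = 7.52e-11). The ratio of Col1a1 to Col1a2 per kilobase was 1.58 to 1.66 in WT, 2.53 to 2.61 in Vehicle and 2.07 to 2.74 in the treated groups. Col5a1, which regulates fibril diameter, fell (log2 fold change -1.47 ± 0.063 SE, adjusted p = 1.35e-11), and Col5a2 (-0.83 ± 0.094) and Col5a3 (-0.25 ± 0.11, adjusted p = 0.0594) stayed within the fold limit. Col2a1, the cartilage chain, had normalized counts of 32.2, 25.2 and 43.6 in WT and 0 in all 3 Vehicle libraries and was at least 7.83-fold lower, against a floor of 3 counts per library. Col2a1 did not pass the test of any difference among the 5 groups (adjusted p = 0.112). The remaining members, Col11a2 and Col27a1, were at 0 to 75.2 in these libraries and were not called.

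The type IV genes split by pair. Col4a1 was at 24251, 22961 and 23026 in WT and 69370.5, 66749.7 and 59464 in Vehicle, a rise of 2.78-fold (log2 fold change 1.48 ± 0.056 SE, adjusted p = 3.16e-12). Col4a2, which joins 2 Col4a1 chains in the ubiquitous type IV trimer, was at 11181, 10387 and 10697 in WT and 36099, 36397 and 31711 in Vehicle and rose 3.23-fold (log2 fold change 1.69 ± 0.063 SE, adjusted p = 2.59e-12). Both genes of this pair rose, with no overlap between groups, while all 4 genes of the other pairs fell. Col4a6, on the X chromosome, was at 1630.4, 1649 and 1605 in WT and 0, 0 and 2.99 in Vehicle, at least 379-fold lower. Col4a5, its neighbour, was at 2698, 3175 and 2793 in WT and 0, 119 and 135 in Vehicle (log2 fold change -5.11 ± 0.66 SE, adjusted p = 7.7e-06). Col4a3 and Col4a4, known from the basement membrane of the kidney glomerulus, had lower counts in Vehicle. Col4a3 was at 170.3, 223 and 295 in WT and 86.8, 7.34 and 1.5 in Vehicle, and Col4a4 at 391, 316 and 359.6 in WT and 25.4, 14.7 and 21 in Vehicle. Col4a4 fell (log2 fold change -4.12 ± 0.79 SE, adjusted p = 0.000362), and so did Col4a3 (log2 fold change -2.83 ± 0.98 SE, adjusted p = 0.0223), whose call was lost without WT replicate 3 (adjusted p = 0.0587) or Vehicle replicate 2 (adjusted p = 0.066) and with only the 6 libraries compared (adjusted p = 0.0625).

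Of the other types, 9 of 23 fell and 2 rose. All 6 type VI genes were lower in Vehicle and 5 of them were called. Col6a5, one of the long alpha chains of type VI, showed the largest of these falls, from 15503, 13672 and 14372 normalized counts in WT to 45.4, 49.9 and 195 in Vehicle, 152-fold (log2 fold change -7.25 ± 0.34 SE, adjusted p = 3.87e-11). Its neighbour on chromosome 9, Col6a6, was at 2558, 2347 and 2070.2 in WT and 0, 91 and 12 in Vehicle (log2 fold change -6.10 ± 0.67 SE, adjusted p = 1.37e-06). Col6a1, a main chain, was at 21763, 21293 and 25602 in WT and 8421, 8680.2 and 9218 in Vehicle (log2 fold change -1.38 ± 0.058 SE, adjusted p = 1.02e-11), and Col6a2 at 10754, 10687 and 11253 in WT and 6868, 7989 and 7228 in Vehicle (log2 fold change -0.57 ± 0.062 SE, adjusted p = 1.26e-06), within the fold limit. Col8a2, a short-chain network collagen, was at 486, 504 and 704 in WT and 0, 4.4 and 0 in Vehicle and was at least 131-fold lower. Of the FACIT genes, Col14a1 fell from 5805, 6078 and 6167 in WT to 522, 259.8 and 293 in Vehicle (log2 fold change -4.06 ± 0.21 SE, adjusted p = 1.78e-10) and Col16a1 fell as well (log2 fold change -1.92 ± 0.19 SE, adjusted p = 3.61e-07). The 2 members called higher were Col28a1, at 59.5, 119.9 and 119.9 in WT and 403, 527 and 585 in Vehicle (log2 fold change 2.34 ± 0.36 SE, adjusted p = 4.94e-05), and Col22a1, a FACIT of tissue junctions. Col22a1 was at 38.1, 17.9 and 8.72 in WT and 70.8, 299 and 7.48 in Vehicle, groups that overlapped, and its call (adjusted p = 0.0477) was lost without WT replicate 2 (adjusted p = 0.12), WT replicate 3 (adjusted p = 0.14) or Vehicle replicate 2 (log2 fold change 0.86, adjusted p = 0.463). It was also lost with the replicate block (log2 fold change 2.09, adjusted p = 0.0939) and with only the 6 libraries compared (adjusted p = 0.102). The multiplexins Col15a1 (-0.22 ± 0.11) and Col18a1 (-0.45 ± 0.088) were within the fold limit.

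**Figure D2:**
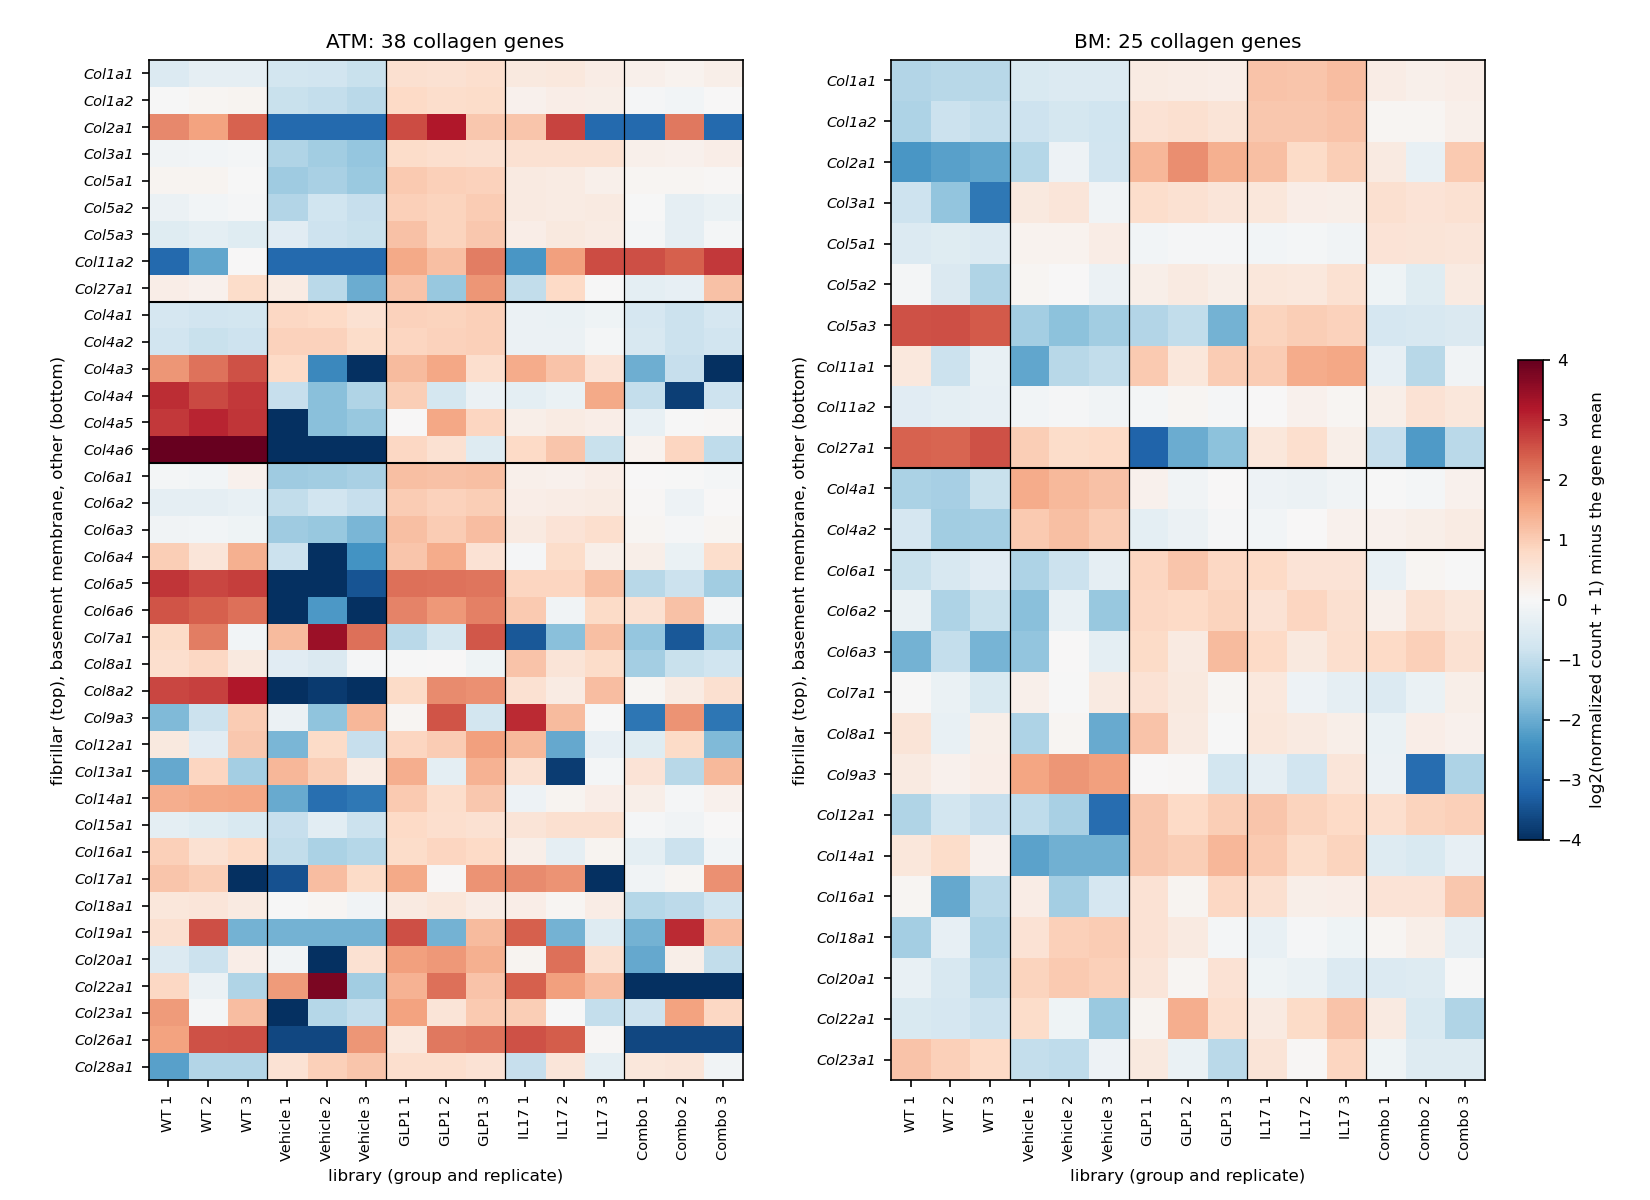
Values of log2(normalized count + 1) minus the mean of the gene for each collagen gene (rows, by class) in each of the 15 libraries (columns) of ATMs (left, 38 genes) and BM (right, 25 genes), on a colour scale cut at -4 and 4. In ATM Vehicle most rows are blue, Col4a1 and Col4a2 are red, and rows of members with few counts vary between replicates.

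Markers of other cells also differed between the ATM groups, and their order was not always that of the collagens. The calls given here are for Vehicle vs WT, where 22.9% of all genes tested were called lower and 12.5% higher. The summed normalized counts of 8 fibroblast markers were 324354 to 338967 in WT and 103642 to 108917 in Vehicle, with 5 of 8 called lower, and were 447362 to 459847 with the GLP-1R agonist, 185480 to 194164 with the antibody and 191354 to 196847 in Combo. Dcn made up most of this sum. Another order was that of Lum, at 10591 to 12159 counts in WT and 40299 to 48480 with the antibody. In Combo, 2 of the 8 were above WT and 6 below. The 6 mesothelial markers were at 48342 to 50106 in WT and 6735 to 7482 in Vehicle, all 6 called lower, and stood at 7011 to 7624, 1789 to 2083 and 7823 to 8294 in the treated groups. The 6 endothelial markers were at 21825 to 22544 in WT and 54193 to 59159 in Vehicle, with 4 of 6 called higher. The endothelial sum was 19682 to 19976 with the GLP-1R agonist, 19577 to 20005 with the antibody and 15551 to 18597 in Combo, below Vehicle in all 3 treated groups. Summed type IV counts were below Vehicle with the antibody and in Combo and above it with the GLP-1R agonist. The 6 mural markers were at 21069 to 22335 in WT and 10435 to 11081 in Vehicle (3 called lower), and the 6 macrophage markers at 65387 to 69418 in WT and 40709 to 43482 in Vehicle (4 lower, 1 higher). In the treated groups the macrophage sum was 130497 to 134224, 195185 to 200062 and 107184 to 108758, above both. The adipocyte markers summed to 3877 to 4077 in WT and 2711 to 3449 in Vehicle. No defining marker of fibroblasts or endothelium was at 0 in any ATM library. The part of these cells in the collagen results was not tested.

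**Figure D3:**
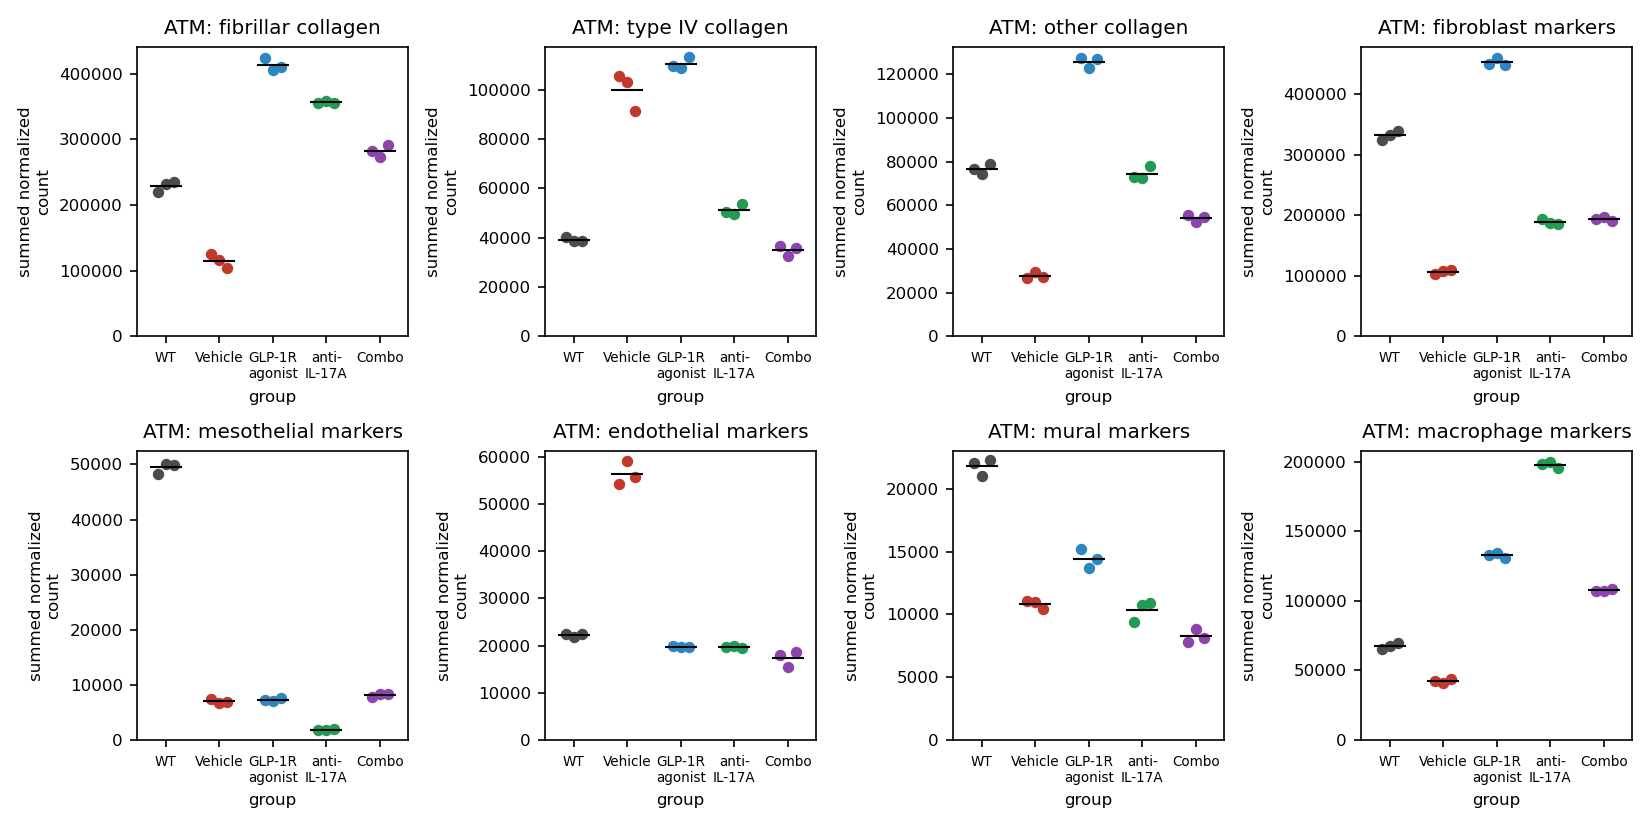
Summed normalized counts of the 3 collagen classes and of 5 marker lists in each ATM library, with points for libraries and lines for group means. Fibrillar and other collagens and the fibroblast list are lowest in Vehicle, and type IV collagen and the endothelial list are higher in Vehicle than in WT. Against Vehicle the endothelial list is lower in all 3 treated groups, and type IV is lower with the antibody and in Combo and high with the GLP-1R agonist.

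All 3 treated groups were compared with the same 3 Vehicle libraries, so their differences share that reference and are given side by side. With the GLP-1R agonist, 21 of 38 members were called higher than in Vehicle and 0 lower, 55.3% of the members, where 20.8% of all genes tested were called higher and 10.9% lower. DESeq2 with the same thresholds gave 21 and 0, and no member was lower at an unadjusted p under 0.05 in edgeR. With the antibody, 22 were called higher and 2 lower (57.9% and 5.26%), where 22.4% and 13.1% of all genes were. In Combo, 13 were called higher and 5 lower (34.2% and 13.2%), where 14.1% and 12.2% of all genes were. Fibrillar members were higher than in Vehicle in 9 of 9 cases in each comparison, of which 8, 8 and 3 were called, with medians of 1.91, 1.30 and 0.996. Of all 17059 genes tested, 9796, 9570 and 8500 were higher in the same order. By group means, 21 of 38 members were highest with the GLP-1R agonist, 10 in WT, 3 in Vehicle and 2 each with the antibody and in Combo.

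Col3a1 was at 232392, 222548 and 219874 with the GLP-1R agonist, 216130, 214467 and 216603 with the antibody and 162382, 160272 and 168694 in Combo, so that each treated library exceeded each Vehicle and each WT library. Against Vehicle it rose by 2.05 ± 0.060 (SE), 1.99 ± 0.060 and 1.59 ± 0.059 on the log2 scale. Col1a1 was at 82733, 81648 and 85242 with the GLP-1R agonist, 69069.9, 70732 and 65807 with the antibody and 61636, 58867 and 62635 in Combo. It rose by 1.44 ± 0.052 (SE) and 1.16 ± 0.052 with the single agents and stood at the limit in Combo (1.00 ± 0.052, not called, and called without Vehicle replicate 1, Vehicle replicate 2 or Combo replicate 2, with values of 1.02 to 1.03). Of the type V chains, which start and limit type I fibrils, Col5a1 rose by 2.39 ± 0.065, 1.70 ± 0.063 and 1.46 ± 0.063. Col2a1 and Col11a2, at 0 in every Vehicle library, had few counts everywhere. Col11a2 was at 23.9, 19 and 34.9 with the GLP-1R agonist, 0.701, 26 and 51.1 with the antibody and 50.1, 44.2 and 59.7 in Combo, at least 6.03-fold, 6.03-fold and 11.9-fold higher than Vehicle. Col2a1 was at least 11.5-fold higher with the GLP-1R agonist and at least 5.69-fold with the antibody, with 0 in 1 antibody library and in 2 Combo libraries, and the antibody call was lost without any single Vehicle library or without antibody replicate 2 (adjusted p 0.0658 to 0.0908). The Vehicle vs WT call of Col2a1 was lost without any single Vehicle library (adjusted p 0.0537 to 0.056).

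Col4a1 and Col4a2 were called in some treated groups and not in others, and the differences between treatments were not tested. With the GLP-1R agonist neither was called, Col4a1 at 73949.7, 71128 and 75376 (log2 fold change 0.17 ± 0.055 SE, adjusted p = 0.0154) and Col4a2 at 35000, 36224 and 37049.9 (log2 fold change 0.055 ± 0.062 SE, adjusted p = 0.479). In both, the GLP-1R agonist libraries were above all WT libraries. With the antibody Col4a1 was at 33179.5, 32506 and 34583 (log2 fold change -0.96 ± 0.056 SE, adjusted p = 5.85e-10) and Col4a2 at 16417, 16486 and 18208 (log2 fold change -1.03 ± 0.062 SE, adjusted p = 1.08e-09), between Vehicle and WT. These 2 values lie on either side of the fold limit, and leaving out Vehicle replicate 3 brought Col4a1 to -1.04 while leaving out Vehicle replicate 2 or antibody replicate 2 brought Col4a2 to -0.99 and -0.996. In Combo Col4a1 was at 24114, 21363 and 24026 and fell by 1.49 on the log2 scale (log2 fold change -1.49 ± 0.056 SE, adjusted p = 3.51e-12), and Col4a2 was at 12254, 10575 and 11369.9 and fell likewise (log2 fold change -1.61 ± 0.063 SE, adjusted p = 5.79e-12). The Combo and WT libraries overlapped for both genes (log2 fold change -0.015 ± 0.055 and 0.084 ± 0.062). Col4a5 and Col4a6 moved the other way. Col4a6 was at 111, 94.8 and 43.6 with the GLP-1R agonist, 109, 135 and 33.5 with the antibody and 68.2, 114 and 30.3 in Combo, at least 19.4-fold, 21.5-fold and 16.5-fold above Vehicle and far below WT. Col4a5 rose in all 3 (log2 fold change 3.14, 2.48 and 2.12). Of the 3 treatments, Col4a4 was called with the antibody (log2 fold change 1.85 ± 0.73 SE, adjusted p = 0.0417), and that call was lost without any single Vehicle library or antibody replicate 3 (adjusted p 0.0591 to 0.285) and with only the 6 libraries compared (adjusted p = 0.0807). Col4a3 was called in none of the 3, but without Vehicle replicate 1 it was called with the GLP-1R agonist (4.65) and with the antibody (4.54), and its Combo value turned from -1.28 to 1.54.

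Among the other types, all 6 type VI genes had a higher mean with the GLP-1R agonist than in the other treated groups. Col6a5 was at 9832, 9577 and 9350.2 with the GLP-1R agonist, 3858, 3859.5 and 4881 with the antibody and 995, 1182 and 809.8 in Combo. None of these groups overlapped another or Vehicle or WT, and Col6a5 rose over Vehicle by 6.65 ± 0.33, 5.46 ± 0.32 and 3.39 ± 0.32 on the log2 scale. Col6a1 was at 51964, 51688 and 52368 with the GLP-1R agonist, 26453, 25841 and 27383 with the antibody and 22877, 22357 and 21664 in Combo, rising by 2.57 ± 0.060, 1.60 ± 0.058 and 1.35 ± 0.058. Col6a2 rose with the single agents (1.88 ± 0.064 and 1.20 ± 0.062) and was within the fold limit in Combo (0.85 ± 0.062). Col6a3 and Col6a6 rose in all 3, Col6a6 to 1782, 1515 and 1824 with the GLP-1R agonist, 938, 406 and 772 with the antibody and 687, 1007 and 440.0 in Combo. Col8a2 was at 130.4, 284 and 273 with the GLP-1R agonist, 116, 94.1 and 178 with the antibody and 80.3, 95.7 and 119 in Combo, at least 53.3-fold, 30.1-fold and 22.8-fold above Vehicle. Col14a1 rose by 3.50 ± 0.21, 2.62 ± 0.20 and 2.68 ± 0.20. In the opposite direction Col28a1 was called lower with the antibody (log2 fold change -1.05 ± 0.34 SE, adjusted p = 0.0155), and whether that differs from the other treatments was not tested. In Combo, Col22a1 and Col26a1 had 0 counts in all 3 libraries. The mean of Col22a1 in Vehicle was 46.4-fold above the floor, but its 3 libraries ranged from 7.48 to 299, so this bound does not hold for each library. Col26a1 had counts in only 1 of 3 Vehicle libraries. Its bound of 5.14-fold rests on that library, and without it both groups were at 0. Without that library (Vehicle replicate 3) Col26a1 was called in the other comparisons with Vehicle, with fitted values of -8.97 for Vehicle vs WT, 8.40 with the GLP-1R agonist and 8.67 with the antibody that depend on the prior count. Col7a1, the anchoring fibril chain, was at 2.59, 0 and 2.84 in Combo and 24, 112 and 47.9 in Vehicle and was at least 22.5-fold lower, a call lost without Vehicle replicate 2 or any single Combo library (adjusted p 0.0509 to 0.071). Col7a1 did not pass the test of any difference among the 5 groups (adjusted p = 0.0961).

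**Figure D4:**
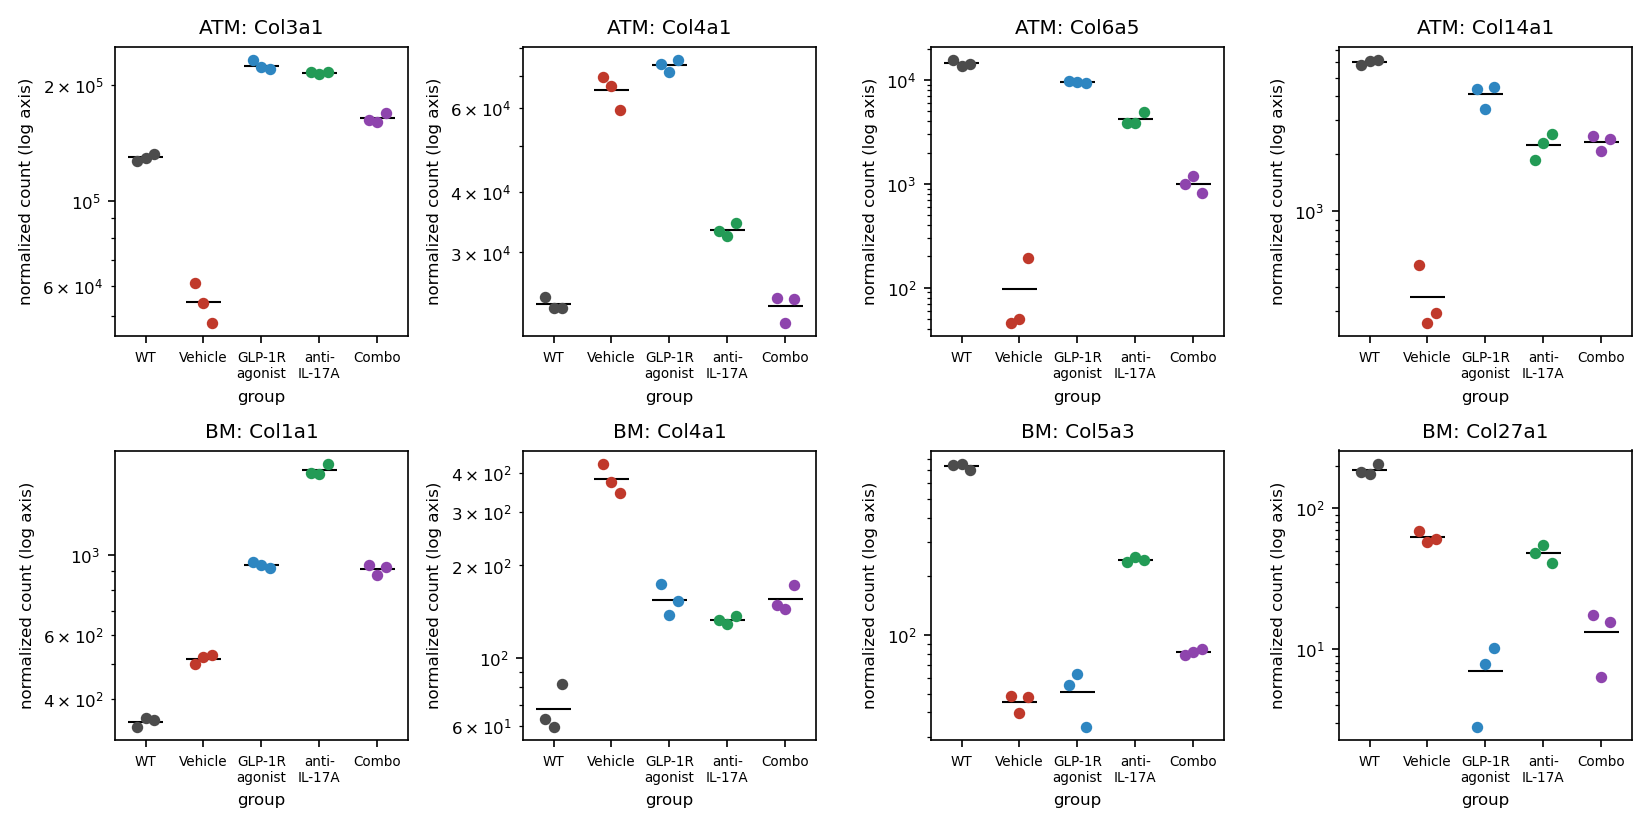
Normalized counts on a log axis of 4 collagen genes in ATMs (top) and 4 in BM (bottom), with points for the 3 libraries of each of the 5 groups and lines for group means. ATM Col6a5 spans from 45.4 in a Vehicle library to 15503 in a WT library, and BM Col5a3 is above 700 in every WT library and below 50 in every Vehicle library.

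Between Combo and WT in ATMs, which asks how far treated obese recipients stand from lean ones, 13 of 38 members were called lower and 2 higher (34.2% and 5.26%), where 14.5% and 7.08% of all genes tested were. Only 1 of the 9 fibrillar members was called, Col11a2 (log2 fold change 4.08 ± 1.43 SE, adjusted p = 0.0357), whose Combo libraries lay above all WT libraries and which lost its call without WT replicate 1, WT replicate 2 or any single Combo library (adjusted p 0.0527 to 0.109). The fibrillar median was -0.0045, and without any 1 of the 6 libraries it was above 0 (0.0098 to 0.19). Col1a1 (0.62 ± 0.051) and Col3a1 (0.34 ± 0.058) were above WT within the fold limit, and Col5a1 overlapped WT (5500.4, 5497 and 5336 against 5657, 5571 and 5157). The 13 lower members were Col4a3, Col4a4, Col4a5, Col4a6, Col6a5, Col6a6, Col8a1, Col8a2, Col14a1, Col16a1, Col18a1, Col22a1 and Col26a1. Of these Col4a6 (-4.52 ± 0.55), Col4a4 (-4.26 ± 0.79), Col4a3 (-4.12 ± 1.04) and Col6a5 (-3.87 ± 0.27) differed most among those with counts in both groups, and Col6a6 lost its call without Combo replicate 3 (adjusted p = 0.0579) and in DESeq2 (-1.71, adjusted p = 0.125). Col26a1, at 36.9, 72.6 and 73 in WT, was at least 22.4-fold lower. Col28a1 was above WT (log2 fold change 1.74 ± 0.35 SE, adjusted p = 0.001). Col18a1, whose C-terminal fragment is endostatin, was at 7266, 7491 and 6779 in WT, 5249, 5645 and 4855 in Vehicle and 2419.8, 2579 and 3078 in Combo, where it was lower than WT (log2 fold change -1.42 ± 0.089 SE, adjusted p = 3.68e-09).

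In BM, collagen counts were few, 2851 to 6703 a library, and 18 to 25 of the 25 members had at least 10 counts in a given library. All but Col7a1 passed the 5-group test (24 of 25, against 95.1% of all genes tested), a share near that of all genes. Between Vehicle and WT, 8 members were called higher and 5 lower (32% and 20%), where 9.44% and 10% of all genes tested were called higher and lower. Leaving out WT replicate 1, which stood apart, gave 8 and 4. The median log2 fold change was 0.45 over the members and -0.02 over all genes.

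The most abundant fibrillar chains of BM, Col5a1 and Col1a1, were higher in Vehicle within the fold limit. Col1a1 was at 335, 354 and 349.9 normalized counts in WT and 499, 522 and 528 in Vehicle (log2 fold change 0.58 ± 0.067 SE, adjusted p = 4.98e-10). Col5a1 was at 645, 673 and 646 in WT and 1055, 1053 and 1168 in Vehicle (log2 fold change 0.74 ± 0.056 SE, adjusted p = 4.32e-15). In neither did the groups overlap. Col5a3, the third type V chain, fell the most of all BM members, from 743, 758 and 701 in WT to 48.8, 39.7 and 48 in Vehicle, 16.1-fold (log2 fold change -4.01 ± 0.13 SE, adjusted p = 3.17e-27). Col27a1, a fibrillar chain of cartilage, fell from 179, 176 and 207 in WT to 69.2, 58 and 60 in Vehicle (log2 fold change -1.58 ± 0.20 SE, adjusted p = 2.7e-09). On few counts, Col3a1 rose from 20.8, 11.9 and 4.31 in WT to 48.8, 52.6 and 33.6 in Vehicle (log2 fold change 1.81 ± 0.32 SE, adjusted p = 4.47e-06) and Col2a1 from 3.46, 3.97 and 4.31 in WT to 9.07, 18.3 and 12 in Vehicle (log2 fold change 1.73 ± 0.54 SE, adjusted p = 0.00428).

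Col4a1 and Col4a2, the 2 type IV genes in the BM table, rose in Vehicle as they did in ATMs. Col4a1 was at 63.2, 59.5 and 81.8 in WT and 429.8, 374 and 345 in Vehicle, 5.65-fold higher (log2 fold change 2.50 ± 0.14 SE, adjusted p = 8.3e-20), and Col4a2 at 84, 49.6 and 51.7 in WT and 273, 310.3 and 268 in Vehicle, 4.52-fold higher (log2 fold change 2.18 ± 0.15 SE, adjusted p = 4.08e-16). The groups were far apart in both. The BM endothelial sum was 2440 to 2662 in WT and 2061 to 2201 in Vehicle, with 2 of 6 markers called higher and 1 lower. By sign, 3 of the 6 were higher in Vehicle and 3 lower. Pecam1, the most counted, was at 2224, 2090 and 1776 counts in WT and 1273, 1301 and 1156 in Vehicle. Cdh5 went from 105, 113 and 93 in WT to 266, 240 and 250 in Vehicle, and Kdr from 69, 54 and 35 to 162, 154 and 178. The part of these cells was not tested.

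Among the other types in BM, Col14a1 fell from 218, 262 and 179 in WT to 35.2, 40.8 and 40.8 in Vehicle (log2 fold change -2.50 ± 0.17 SE, adjusted p = 1.66e-16). Col18a1 (7.79, 16.9 and 8.61 against 32.9, 43 and 44.4) rose, with log2 fold change 1.85 ± 0.35 SE, adjusted p = 1.23e-05. Col9a3 and Col20a1, both FACIT chains, also rose (1.44 ± 0.35 and 1.60 ± 0.20). Col6a3 rose on 5.19 to 22.6 normalized counts (log2 fold change 1.10 ± 0.48 SE, adjusted p = 0.0339), a call lost without WT replicate 1, WT replicate 3, Vehicle replicate 2 or Vehicle replicate 3 (adjusted p 0.071 to 0.248) and with only the 6 libraries compared (adjusted p = 0.0668). Col8a1 fell just past the fold limit (-1.02 ± 0.46), at 25.1, 13.9 and 20.5 in WT and 6.8, 18.3 and 3.6 in Vehicle, groups that overlapped. Col23a1 fell as well (-1.75 ± 0.42). Col6a1 was at 37.2, 44.6 and 50.6 in WT and 29.5, 38.7 and 55.2 in Vehicle, groups that overlapped (-0.10 ± 0.23).

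Against the shared Vehicle libraries of BM, 9 of 25 members were called higher and 4 lower with the GLP-1R agonist (36% and 16%), where 7.6% and 9.08% of all genes tested were. With the antibody 12 were called higher and 5 lower (48% and 20%), where 7.65% and 8.46% of all genes were. In Combo 6 were called higher and 4 lower (24% and 16%), where 6.58% and 11.1% of all genes were. Without the fold limit, 18 of 25 members passed in Combo, 12 higher and 6 lower. So did 9849 of all 13353 genes tested, a share near that of the members.

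Type I collagen was highest with the antibody. Col1a1 was at 953, 935 and 917 with the GLP-1R agonist, 1677, 1668 and 1780.1 with the antibody and 937, 879 and 922 in Combo. It rose by 1.73 ± 0.056 (log2, SE) with the antibody and was higher within the fold limit in the other 2 (0.86 ± 0.059 and 0.82 ± 0.060). Col1a2 was at 319, 419 and 391 in WT, 422, 463 and 439 in Vehicle, 1138, 1173 and 1076 with the GLP-1R agonist, 1603, 1586 and 1659 with the antibody and 795, 798 and 861 in Combo. It rose by 1.36 ± 0.069 and 1.87 ± 0.067 with the single agents. For both chains the antibody libraries were above every other BM library. Beside this, the 4 osteoblast markers in the BM table summed to 254 to 284 in WT, 221 to 241 in Vehicle, 714 to 782 with the GLP-1R agonist, 467 to 515 with the antibody and 283 to 327 in Combo. Most of the sum with the GLP-1R agonist was Ibsp, at 661, 769 and 605 counts against 113, 92 and 107 in Vehicle. Against Vehicle, 2 of the 4 were higher and 2 lower with the GLP-1R agonist (1 called), and 4 were higher with the antibody (2 called). The part of osteoblasts was not tested. The marrow stroma list (Cxcl12, Lepr, Kitl, Vcam1 and Foxc1) summed to 9693 to 9876, 6036 to 6385, 11928 to 12182, 8295 to 8384 and 5354 to 5487 in the same order. Vcam1 made up most of this sum in each group. Against Vehicle, all 5 were higher with the GLP-1R agonist (3 called) and with the antibody (2 called). In Combo 3 of the 5 were higher and 2 lower (0 called), although the sum was below Vehicle.

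Other fibrillar chains followed separate patterns. Col5a3 was at 55.3, 63.1 and 33.7 with the GLP-1R agonist, 235, 251 and 242 with the antibody and 79.2, 81.5 and 84.5 in Combo. It rose with the antibody (log2 fold change 2.42 ± 0.15 SE, adjusted p = 5.21e-18), with every antibody library above every Vehicle library and below every WT library, and was not called with the GLP-1R agonist (0.18 ± 0.19) or in Combo (0.85 ± 0.18). Col27a1 was at 2.81, 7.89 and 10.2 with the GLP-1R agonist, 47.7, 54.8 and 40.8 with the antibody and 17.5, 6.35 and 15.6 in Combo. It fell further below Vehicle with the GLP-1R agonist (log2 fold change -3.15 ± 0.33 SE, adjusted p = 2.81e-11) and in Combo (log2 fold change -2.23 ± 0.29 SE, adjusted p = 9.72e-09), and with the antibody it was at -0.38 ± 0.23 (adjusted p = 0.129). Col2a1 was at 55.3, 78.9 and 58.3 with the GLP-1R agonist, 49.7, 36.9 and 42.6 with the antibody and 27.8, 16.9 and 44.9 in Combo and was called higher in all 3 (2.27, 1.69 and 1.17), in Combo not without Vehicle replicate 1 (0.96) or Combo replicate 3 (0.76). Col11a1, a minor chain of cartilage fibrils, was at 1.13, 3.22 and 3.6 in Vehicle, 17.8, 11.4 and 17.4 with the GLP-1R agonist, 17.3, 24.3 and 25.4 with the antibody and 6.17, 3.18 and 7.3 in Combo. It was at least 4.56-fold and 6.55-fold higher with the single agents. Col5a1 was at 874, 918 and 912 with the GLP-1R agonist, 888, 892 and 871 with the antibody and 1402, 1362 and 1335 in Combo, within the fold limit of Vehicle in each.

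Col4a1 fell in all 3 treated groups of BM, to 173, 138 and 153 with the GLP-1R agonist, 133, 129 and 137 with the antibody and 149, 144 and 173 in Combo (log2 fold change -1.31 ± 0.12, -1.53 ± 0.12 and -1.30 ± 0.12). Col4a2 was at 100.3, 114 and 129.8 with the GLP-1R agonist, 123, 134 and 151 with the antibody and 151, 157 and 166 in Combo. It fell with the GLP-1R agonist (-1.31 ± 0.14) and the antibody (-1.06 ± 0.14, and -0.99 without Vehicle replicate 2 or antibody replicate 1), and was lower in Combo within the fold limit (-0.85 ± 0.14). Every treated library lay below every Vehicle library and above every WT library for both genes.

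Of the other types in BM, Col14a1 was at 337, 316 and 397 with the GLP-1R agonist, 331, 265 and 292 with the antibody and 110.1, 103 and 126 in Combo. It rose in each (3.16 ± 0.16, 2.92 ± 0.16 and 1.54 ± 0.19) and exceeded every WT library with both single agents. Col12a1, a FACIT of tendon and ligament, was at 6.93, 9.92 and 8.61 in WT, 7.94, 6.44 and 1.2 in Vehicle, 37.5, 30.7 and 34.7 with the GLP-1R agonist, 38.6, 32.4 and 30.8 with the antibody and 27.8, 32.8 and 34.4 in Combo, higher than Vehicle in all 3 (2.67 ± 0.42, 2.65 ± 0.42 and 2.56 ± 0.43). Each treated library was above each untreated one. Col9a3 fell from 49.9, 56.9 and 51.6 in Vehicle to 15.9, 16.7 and 9.2 with the GLP-1R agonist, 12.2, 8.99 and 22.7 with the antibody and 13.4, 1.06 and 6.26 in Combo (-1.90 ± 0.36, -1.84 ± 0.36 and -2.90 ± 0.42). Col6a1 was at 127, 154 and 127 with the GLP-1R agonist, 124, 103 and 102 with the antibody and 56.6, 74.1 and 68.9 in Combo and rose with the single agents (1.74 ± 0.20 and 1.42 ± 0.20), and Col6a2 rose in all 3 (1.87 ± 0.26, 1.74 ± 0.26 and 1.46 ± 0.27). Col6a3 was called higher in all 3 on 28.9 to 54.2 normalized counts, and without Vehicle replicate 1 the antibody (0.82) and Combo (0.97) values came under the fold limit. Col18a1 fell with the antibody (-1.07 ± 0.32, and -0.998 without Vehicle replicate 3) and was at -0.89 ± 0.32 in Combo, where it was called without Vehicle replicate 1 or Combo replicate 2 (-1.01 and -1.02).

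Between Combo and WT in BM, 11 members were called higher and 4 lower (44% and 16%), where 4.4% and 9.93% of all genes tested were. Without WT replicate 1 the counts were again 11 and 4. The 4 lower members were Col27a1 (-3.81 ± 0.25), Col5a3 (-3.16 ± 0.12), Col9a3 (-1.46 ± 0.48, -0.97 without Combo replicate 2) and Col23a1 (-1.43 ± 0.40). The 11 higher members were Col1a1 (1.40 ± 0.062), Col1a2 (1.13 ± 0.072), Col2a1, Col3a1, Col4a1 (1.20 ± 0.15), Col4a2 (1.33 ± 0.16), Col5a1 (1.06 ± 0.055), Col6a2 (1.17 ± 0.26, 0.97 without WT replicate 2), Col6a3, Col12a1 and Col16a1. Among these, Col2a1 (2.90 ± 0.46), Col6a3 (2.43 ± 0.40) and Col3a1 (2.14 ± 0.31) had the largest values and rested on at most 58.6 normalized counts in a library. Col14a1 (-0.96 ± 0.14) crossed the limit without WT replicate 3 or Combo replicate 3 (-1.08 and -1.05), and Col18a1 (0.96 ± 0.39) without WT replicate 2 or Combo replicate 3 (1.40 and 1.11).

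For the 24 members in both tables, an interaction term over 30 libraries tested whether ATMs and BM differed in an effect. For Vehicle vs WT, 14 of 24 differed (58.3%, against 56% of all genes tested), and for Combo vs Vehicle 12 of 24 (50%, against 55.1%), so the shares were near those of all genes. For Vehicle vs WT, 9 of the 14 had opposite signs in ATMs and BM, namely Col1a1, Col1a2, Col2a1, Col3a1, Col5a1, Col5a2, Col6a3, Col16a1 and Col18a1, and in each the ATM value was the negative one. How often signs were opposite over all genes was not counted, so this cannot be read as particular to collagens. The BM values of Col1a2 (0.24) and Col16a1 (0.30) were small. In BM the Vehicle and WT libraries overlapped for Col5a2, Col6a3 and Col16a1. For Col3a1 the ATM minus BM difference was -3.05 ± 0.28 SE, adjusted p = 5e-10, and for Col5a1 -2.20 ± 0.082 SE, adjusted p = 3.58e-18. Col4a1 and Col4a2 rose in both tissues, by less in ATMs (-1.02 ± 0.14 SE, adjusted p = 4.42e-07 and -0.48 ± 0.16 SE, adjusted p = 0.0127). Col5a3 fell in BM alone and the difference was 3.76 ± 0.19 SE, adjusted p = 3.06e-15. Col14a1 fell in both, by more in ATMs (-1.56 ± 0.32 SE, adjusted p = 0.000192). For Combo vs Vehicle, Col4a1 fell by amounts whose difference was -0.15 ± 0.12 SE, adjusted p = 0.299, and Col27a1, lower in BM Combo, differed (3.22 ± 0.92 SE, adjusted p = 0.00448).

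**Figure D5:**
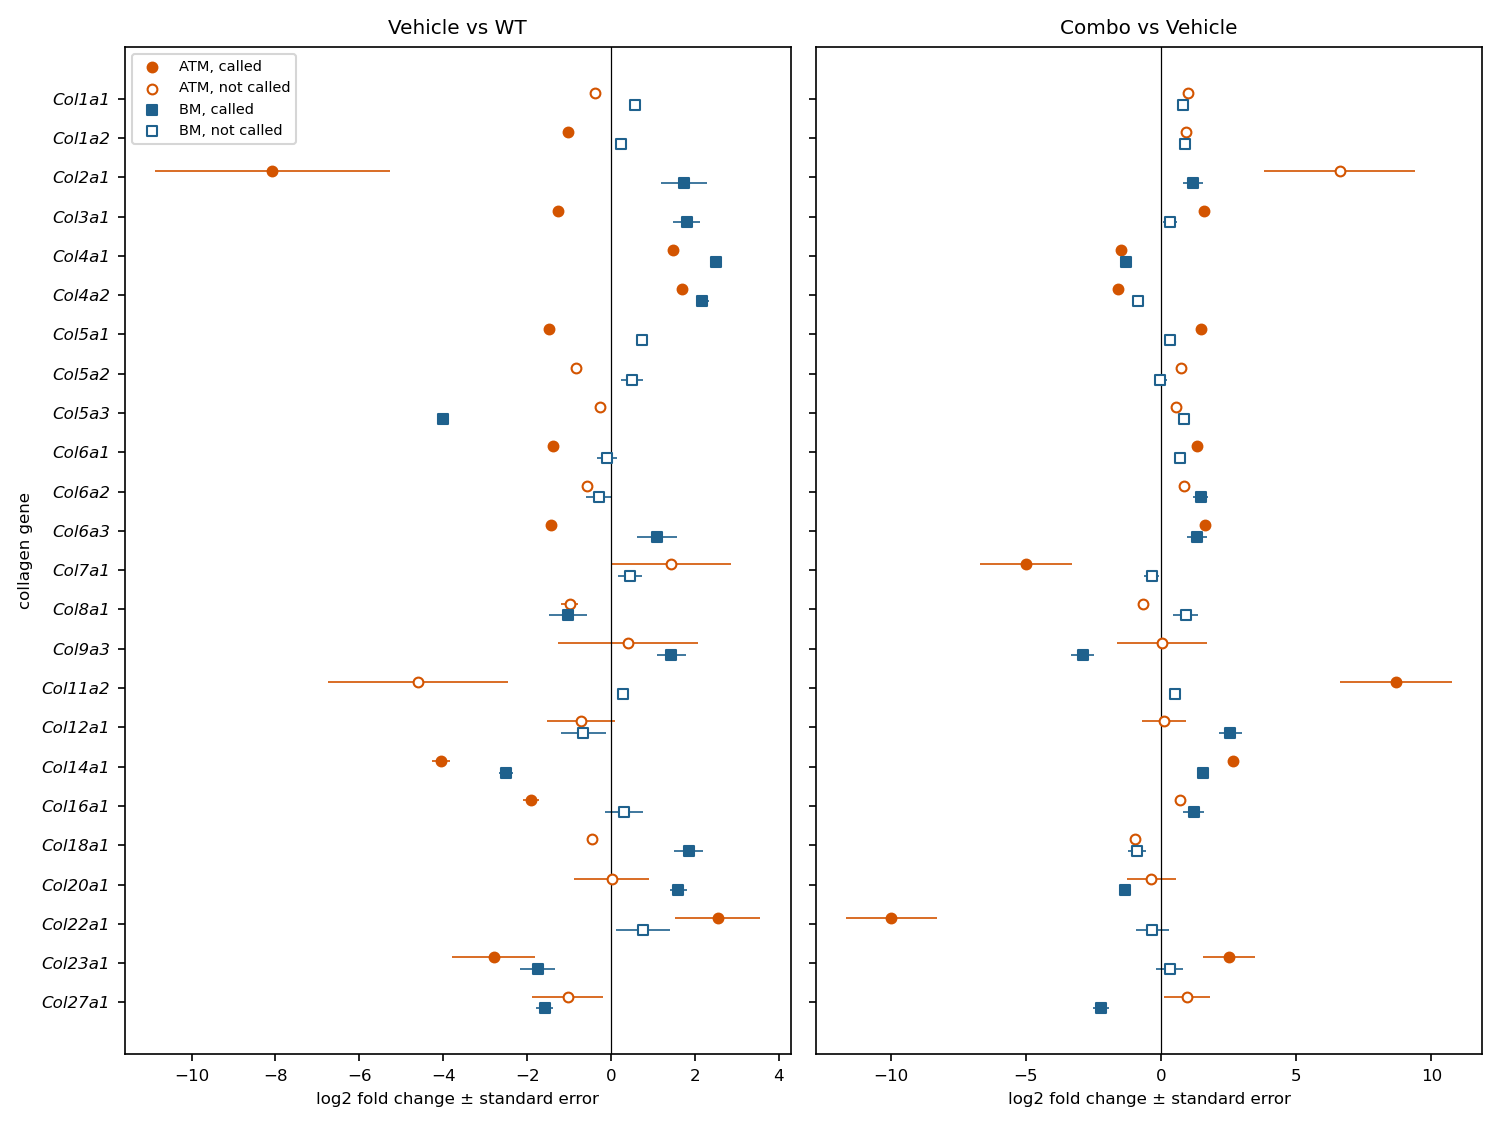
Log2 fold change with standard error of the 24 collagen genes in both tables, for Vehicle vs WT (left) and Combo vs Vehicle (right), in ATMs (orange circles) and BM (blue squares), filled where called. For Vehicle vs WT most ATM points lie left of 0, Col4a1 and Col4a2 lie right of 0 in both tissues, and Col5a3 is far left in BM alone.

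Collagen chains are modified, folded, cut and cross-linked by other proteins. Of 33 such genes in the ATM table, 11 fell and 2 rose in Vehicle against WT (33.3% and 6.06%, where 22.9% and 12.5% of all genes did), with a median log2 fold change of -0.74. With the GLP-1R agonist 14 rose and 3 fell (42.4% and 9.09%, against 20.8% and 10.9% of all genes). With the antibody 6 rose and 5 fell (18.2% and 15.2%, against 22.4% and 13.1%), and in Combo 6 rose and 6 fell (18.2% and 18.2%, against 14.1% and 12.2%), shares near those of all genes. Against WT, 4 fell in Combo (12.1%, against 14.5%). Sparc, a collagen-binding matricellular protein and the most counted of them, was at log2 fold change 0.10 ± 0.025, adjusted p = 0.00189 for Vehicle vs WT. Serpinh1, the collagen chaperone Hsp47, was at log2 fold change 0.79 ± 0.035, adjusted p = 1.62e-11 for Vehicle vs WT and fell with the GLP-1R agonist, the antibody and Combo (Combo: log2 fold change -1.45 ± 0.035, adjusted p = 1.49e-14). P4hb, the beta subunit of prolyl 4-hydroxylase, was at log2 fold change -0.54 ± 0.042, adjusted p = 2.29e-08 for Vehicle vs WT. Of the 24 processing genes in the BM table, 3 rose in Vehicle against WT, 12.5% against 9.44% of all genes, a share near that of all genes. These were Lox, Loxl2 and Loxl3, which cross-link collagen. Loxl1, of the same family, was at 11, 24 and 19 counts in WT and 10, 8 and 13 in Vehicle. With the GLP-1R agonist 5 rose and 3 fell (20.8% and 12.5%, against 7.6% and 9.08% of all genes), and with the antibody 3 rose and 2 fell (12.5% and 8.33%, against 7.65% and 8.46%). In Combo 1 rose and 5 fell (4.17% and 20.8%, against 6.58% and 11.1%), and between Combo and WT 1 was higher and 2 lower (4.17% and 8.33%, against 4.4% and 9.93%). Loxl3 rose in Vehicle and fell in each treated group in both tissues.

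Of 9 collagen receptors and uptake genes in the ATM table, 5 fell in Vehicle (Ddr1, Ddr2, Itga10, Itga11 and Mrc2), 55.6% where 22.9% of all genes fell. Ddr2, a receptor for fibrillar collagen, fell with log2 fold change -2.57 ± 0.11, adjusted p = 9.54e-12, and Mrc2, which takes up cleaved collagen, with log2 fold change -1.98 ± 0.17, adjusted p = 5.47e-08. Mrc2, Itga11 and Lair1, an inhibitory collagen receptor of leukocytes, rose in all 3 treated groups, and Ddr2 and Itga10 rose with the GLP-1R agonist. Between Combo and WT, Lair1 was higher and Ddr1, Ddr2 and Itga11 lower. In BM 2 of 9 fell in Vehicle (22.2%, where 10% of all genes fell), Itga1, the alpha subunit of the main type IV collagen integrin, and Mrc2, and both rose in each treated group. Itga1 was at log2 fold change -2.28 ± 0.11, adjusted p = 7.09e-21 for Vehicle vs WT. The platelet collagen receptor Gp6 fell with the antibody and in Combo, and Itga2 and Gp6 were lower in Combo than in WT.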

How the data were processed

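Per the study's methods and submitters' notes, reads had been aligned to mm10 with STAR 2.7.2a and counted on GENCODE M22 genes with featureCounts 2.0.1, unstranded. The values deposited are raw counts in 1 table per tissue, without rarely counted genes (smallest total 54 in ATMs, 55 in BM). Groups came from the sample labels. Counts were fitted in R 4.3.3 with edgeR 4.0.16 (robust quasi-likelihood, TMM, filterByExpr, which removed 0 genes), 15 libraries of a tissue together, 2-sided, with p adjusted over all genes. Alternatives included DESeq2 1.42.0 and a replicate block. A fold against a group with at most 3 counts in each library is a bound at 3 counts per library. It uses the mean of the other group, so it can rest on 1 library. To normalize, each count was scaled by the mean effective library size over that of its library. Lengths and positions are from GENCODE M21, motif windows from RefSeq. In ATM data simulated for Vehicle vs WT (16912 genes), 93% of changes of log2 size 3 and 72% of those of 1.5 were recovered. Changes were put only into genes above a limit on mean counts, so these rates do not cover members with few counts. Named were, per tissue, the 2 most counted members of each class and the 5 largest calls per comparison, plus genes needed to account for a count. Members, lists and tests were chosen with earlier results of these data known. Library totals limit precision, and p-values measure the spread between these libraries, which may be partly technical.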

Additional observations from a re-analysis of the deposited data

Results flagged for a closer look

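The results listed here are effects that differed between ATMs and BM in the interaction test of edgeR (adjusted p below 0.05 over all genes in both tables), in 14 of 24 collagen genes for Vehicle vs WT and 12 of 24 for Combo vs Vehicle, as the ATM minus BM difference in log2 fold change. For Vehicle vs WT the difference was negative in 13 genes and positive in Col5a3 (3.76). Among fibrillar chains it was -0.95 for Col1a1, -1.26 for Col1a2, -3.05 for Col3a1, -2.20 for Col5a1 and -1.32 for Col5a2. For Col2a1 it was -9.87, a fitted value against 3 ATM Vehicle libraries at 0 that depends on the prior count. The type IV genes gave -1.02 (Col4a1) and -0.48 (Col4a2). The other types gave -1.28 (Col6a1), -2.54 (Col6a3), -1.56 (Col14a1), -2.22 (Col16a1) and -2.30 (Col18a1).

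For Combo vs Vehicle the difference was 0.21 for Col1a1, 1.30 for Col3a1, 1.18 for Col5a1, 0.81 for Col5a2, 0.69 for Col6a1, 1.18 for Col14a1 and 3.22 for Col27a1. It was negative for Col4a2 (-0.72) and Col8a1 (-1.53). Values that rest on ATM groups at or near 0 counts and depend on the prior count were -4.59 for Col7a1, 8.27 for Col11a2 and -9.70 for Col22a1. The fit over 30 libraries joins tissues whose spread between replicates differed, 32.5% in ATMs and 3.51% in BM. Groups of 3 libraries were not searched for outlying samples.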

How the results depend on the processing

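Counts of members called kept within 1.5 times under DESeq2 size factors, DESeq2, no filter, and only the 6 libraries compared, and scaling moved no split of higher and lower calls in a tissue. Requiring at least 10 counts in every library left 19 members in ATMs and 13 in BM, by construction fewer calls. The counts were 11 (ATM Vehicle vs WT), 13 (GLP-1R agonist vs Vehicle), 15 (antibody vs Vehicle), 9 (Combo vs Vehicle), 6 (Combo vs WT) and 18 (5-group test), and in BM 5, 6, 9, 4, 7 and 12 in the same order. Without the fold limit BM Combo vs Vehicle gave 18 of 25 members, beside 9849 of 13353 genes tested. With 1 library left out, ATM counts ranged from 18 to 21, 20 to 23, 20 to 23, 17 to 18 and 13 to 15 in that order of comparisons and 27 to 29 in the 5-group test, and BM counts from 11 to 14, 13 to 15, 15 to 17, 9 to 11, 14 to 17 and 23 to 24. Replicate numbers paired no libraries (the mean correlation of same-numbered libraries lay between -0.015 and 0.0346). With the replicate block, ATM counts were 20, 21, 24, 17, 15 and 28 and BM counts 13, 14, 17, 10, 15 and 24, and the tissue test passed 26.

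Among the named genes, calls lost with only the 6 libraries compared, DESeq2 or the replicate block stand beside their values above, DESeq2 also called ATM Col2a1 in Combo vs Vehicle (adjusted p = 0.0245, against a Vehicle group at 0) and ATM Col7a1 in Combo vs WT (-3.64, adjusted p = 0.0366), and ATM Col1a1 in Combo vs Vehicle passed the fold limit in the 6 libraries (1.01) and with at least 10 counts in every library (1.02), where ATM Col4a2 with the antibody came under it (-0.98). Signs turned in uncalled values only. For Combo vs WT, ATM Col4a1 was 0.0019 with at least 10 counts in every library and 0.028 in the 6 libraries compared, and ATM Col6a1 was 0.0056 in the 6 libraries. ATM Col4a2 with the GLP-1R agonist was -0.0022 in the 6 libraries. With 1 library left out, ATM values ranged from -0.045 to 0.040 (Col4a1) and -0.087 to 0.051 (Col6a1) for Combo vs WT, -0.010 to 0.085 (Col4a2) and -1.43 to 0.80 (Col22a1) with the GLP-1R agonist, -1.25 to 0.99 (Col22a1) with the antibody, and -0.54 to 0.36 (Col4a4) and -2.17 to 1.54 (Col4a3) for Combo vs Vehicle. BM values ranged from -0.35 to 0.089 (Col6a1) and -0.91 to 0.066 (Col6a2) for Vehicle vs WT, -0.68 to 0.10 (Col11a1) for Combo vs WT, -0.014 to 0.39 (Col5a3) with the GLP-1R agonist and -0.12 to 0.18 (Col3a1) with the antibody. The cause was not tested.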
